A study of Mus musculus with 6 samples.

Results

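The resting state of the lung endothelial preparation was described from the 3 libraries of sham-operated mice, taken by their treatment label out of the 6 libraries of the series. The other 3 libraries came from mice after pneumonectomy (PNX, removal of one lung) and were not used. The mice were C57BL6, labelled male and 8 weeks old, while the methods of the study give an older age. Sham mice had a thoracotomy without loss of a lung, and each library was pooled from 2 mice. The lungs were digested with collagenase A, and cells that carry CD31 on their surface were drawn out with magnetic beads through a pair of columns, so the libraries hold what the beads kept rather than one pure cell type. RNA of these cells was sequenced as strand-specific poly(A) libraries, and the deposited TPM (a share of all transcripts, corrected for transcript length and scaled to 1000000 per library) was summed over the transcripts of each of 24063 gene symbols. Levels are given in the order of sham replicates 1, 2 and 3.

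Several properties of the libraries bear on every level below. Total counts were 81282871, 72198617 and 33374216. Replicates 1 and 2 were close to duplicates, with a chi-square of 1.75 per degree of freedom over 11747 symbols with 1 transcript, against 87.1 and 82.5 for their pairings with replicate 3. Their mean was therefore counted as 1 sample beside replicate 3, so that n = 2 and no test of means was possible. The labels mark replicates 1 and 2, and not replicate 3, as taken over from an earlier record, so that origin, depth and animals cannot be told apart. The libraries also went against the label for sex. Xist, the noncoding RNA that coats the inactive X chromosome of female cells, stood at 125, 119 and 127 TPM (60434, 51113 and 26132 counts in its 2 transcripts), and the 46 symbols on chromosome Y had 0 counts in all 3 libraries. Tsix overlaps Xist on the other strand and stood at 20.1, 19.5 and 22.01 TPM. No source used here says whether chromosome Y was part of the alignment.

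The deposited table listed each RefSeq transcript, and reads shared by transcripts of a gene seemed to be placed on each of them. Of 11929 transcripts that shared a symbol and had over 50 counts, 2931 had exactly the counts of another transcript of the symbol. The 4914 symbols with several transcripts held 48.5% of all TPM. A sum over transcripts is thus an upper reading of the level of such a gene, and the highest transcript alone (as a mean over the samples) is given as a lower one for each gene below whose sum is over 2-fold higher than it.

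Lung ECs line the arteries, veins, lymphatics and the dense capillary bed around the alveoli, where gas exchange takes place. Capillary ECs of the mouse lung are of 2 kinds. Aerocytes are large, thin cells apposed to the alveolar epithelium, and general capillary cells act as stem-like cells that renew the bed. All ECs hold contact with each other through adherens and tight junctions, read blood flow and growth factors through receptor kinases, and control vessel tone, clotting and the entry of leukocytes.

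The labelled cell type was first checked against 8 genes that define ECs, and all 8 were among the 1000 highest of 24063 symbols in the table, whether transcripts were summed or only the highest was taken. Their percentile among all symbols had a median of 99.5 and a lowest value of 97.8. Egfl7, a protein secreted by ECs, was the highest at 4759.6, 4779 and 3399 TPM, a mean of 4084 ± 969 TPM (SD, n = 2 samples here and below) and rank 14. Eng, the endoglin co-receptor for BMP ligands, was at 2219, 2245 and 1785 TPM (mean 2009 ± 316 TPM), and Pecam1, which encodes the CD31 protein used to select the cells, at 1922, 1927 and 1550.4 TPM (mean 1737 ± 265 TPM). These 3 genes have 4, 3 and 2 transcripts, and their highest transcripts alone were at 1084, 679 and 876 TPM (means over the 2 samples).

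Next in order came the junction proteins. Cdh5, the VE-cadherin of adherens junctions, was at 956, 962 and 861 TPM (mean 909.9 ± 69.5 TPM), and Cldn5, the claudin of endothelial tight junctions, at 993, 1014 and 767 TPM (mean 885 ± 167 TPM). The angiopoietin receptor Tek was at 979, 989 and 729.9 TPM (mean 857 ± 179.9 TPM) as a sum of 3 transcripts, and at 291 TPM by its highest. The VEGF receptor Kdr was at 373, 375 and 343 TPM (mean 358 ± 22.3 TPM) and the orphan receptor Tie1 at 340.3, 346 and 293 TPM (mean 318 ± 35.7 TPM), each from 1 transcript. Of the 7 neighbouring pairs in this order, 4 had overlapping ranges over the 3 libraries, namely Eng with Pecam1, Cdh5 with Cldn5, Cldn5 with Tek, and Kdr with Tie1, and the other 3 did not. Without the sum over transcripts the order changed, with Egfl7, Cdh5, Cldn5 and Pecam1 highest. For all 8 genes replicate 3 was the lowest library, and in bulk RNA fewer cells of a type and less RNA per cell cannot be told apart.

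**Figure D1:**
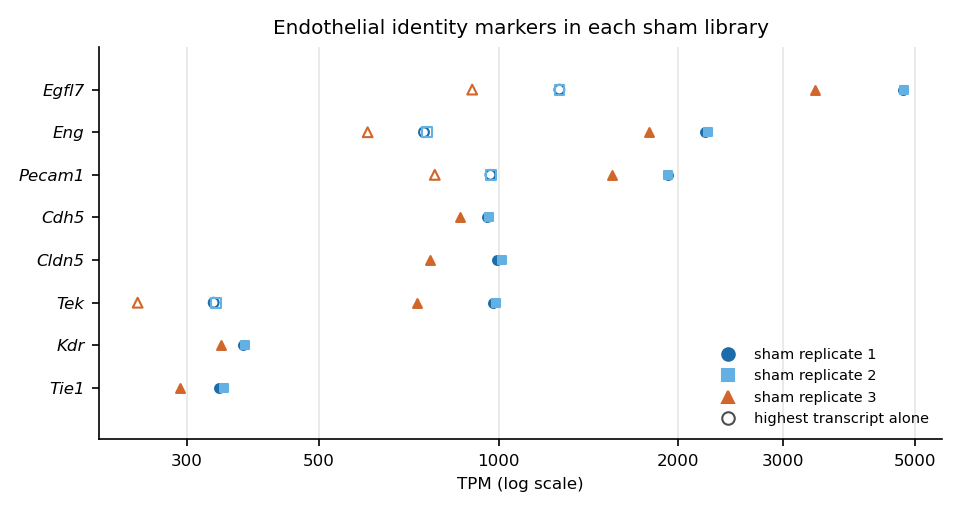
TPM (log scale) of the 8 endothelial identity markers in sham replicates 1 (circles), 2 (squares) and 3 (triangles). Filled symbols are sums over the transcripts of a gene and open symbols the highest transcript alone, drawn for genes with several transcripts. Replicates 1 and 2 lie on each other and replicate 3 lies to their left for every gene, from Egfl7 (3399 against a mean of 4769 TPM) to Tie1 (293 against 343 TPM).

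To show the DNA in front of these genes, the 250 bases upstream of the RefSeq start of Tie1, Eng and Cldn5 are printed from the RefSeq promoter table (GRCm38.p6). They include the highest and the lowest count of the core motif of ETS factors, GGAA, found among the 5 marker promoters examined. The motif is in capitals, read as GGAA on the printed strand or TTCC for the other, and each sequence runs toward the start of its gene.
Tie1, minus strand, chr4:118489850-118490099: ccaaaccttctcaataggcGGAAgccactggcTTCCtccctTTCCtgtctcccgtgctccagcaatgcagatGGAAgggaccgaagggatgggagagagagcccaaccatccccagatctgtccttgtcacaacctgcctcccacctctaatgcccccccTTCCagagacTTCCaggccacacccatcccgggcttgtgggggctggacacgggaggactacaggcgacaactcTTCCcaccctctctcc
Eng, plus strand, chr2:32646345-32646594: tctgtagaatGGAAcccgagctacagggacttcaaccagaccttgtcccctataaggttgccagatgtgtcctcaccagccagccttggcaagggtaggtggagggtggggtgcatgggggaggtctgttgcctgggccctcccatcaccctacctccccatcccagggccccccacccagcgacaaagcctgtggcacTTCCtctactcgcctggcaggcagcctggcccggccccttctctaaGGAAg
Cldn5, plus strand, chr16:18776597-18776846: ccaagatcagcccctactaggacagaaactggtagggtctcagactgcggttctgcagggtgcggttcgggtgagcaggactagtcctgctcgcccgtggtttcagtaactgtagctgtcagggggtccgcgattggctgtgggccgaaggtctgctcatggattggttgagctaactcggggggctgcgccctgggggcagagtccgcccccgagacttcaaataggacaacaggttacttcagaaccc
The windows of Tie1 and Eng held the motif 7 and 3 times, those of Kdr and Tek 4 and 2 times, and that of Cldn5 held none. Unlike the printed windows, that of Kdr lies wholly and that of Tek mostly inside the span of the gene in the annotation. Of all 20328 promoters of the same length in the table, 93.1% held GGAA on either strand, so holding it sets no gene apart. The longer form CAGGAAG, which contains GGAA, was in none of these 5 windows and in 10.3% of all promoters. The letters TATAAA, counted on either strand anywhere in the window, were in none of the 5 and in 11.2% of all. Counting every window the table gives for the identity list, CAGGAAG was in 2 of 8 windows (25%, from 6 symbols), both of them windows of Egfl7, against 4 of 8 (50%) in the list of surface and secreted proteins, 3 of 8 (37.5%) in the alveolar type 2 list and 2 of 24 (8.33%) among endothelial transcription factors. The letters describe the windows and say nothing about a factor at work there.

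Egfl7 also hosts a microRNA gene, Mir126a, whose mature product miR-126a-3p is known from ECs. The table listed the precursor (73 bases) at 49.1, 34.4 and 40.6 TPM, from 114, 71 and 40 counts. The precursor lies inside Egfl7, and libraries of poly(A) RNA measure the host transcript rather than the mature microRNA. The mature sequence from RefSeq, at chr2:26591402-26591423 on the plus strand of GRCm38.p6, has its seed (bases 2 to 8) in capitals.
mmu-miR-126a-3p: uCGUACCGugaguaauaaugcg

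Other surface and secreted proteins of ECs were high as well. All 20 of the list passed 1 TPM in both samples, and 17 had a mean of at least 100 TPM, with a median of 380.0 TPM. Of all 24063 symbols, 14288 reached 1 TPM and 1712 reached 100 TPM in both samples. By the mean of the samples, a looser rule, the symbol of rank 1822 was at 105 TPM and that of rank 1938 at 99.2 TPM. The counts for each list below are to be read against these. Acvrl1, the ALK1 receptor of BMP ligands that acts with Eng, led at 3651, 3694 and 3279.8 TPM (5 transcripts, highest 706 TPM). Tspan7, a tetraspanin, was at 1334, 1336 and 1033 TPM. The adrenomedullin receptor parts Ramp2 and Calcrl were at 1170.2, 1193 and 740.3 TPM and at 1039, 967 and 441 TPM. Calcrl was the one gene of the list past 2-fold between the samples, at 2.28-fold lower in replicate 3 than in the mean of the others. Among all 14288 symbols at or above 1 TPM in both samples, 5.49% differed by over 2-fold, 4.56% higher and 0.924% lower in replicate 3. Tmem100, a membrane protein downstream of Acvrl1, was at 1197, 1183 and 668 TPM, and the sialomucin Cd34 at 567, 569.5 and 547 TPM. At the low end stood Robo4, a guidance receptor of vessels, at 104, 107 and 84.2 TPM, and Nos3, the endothelial nitric oxide synthase, at 31.9, 32.6 and 21.4 TPM and rank 6110.

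Transcription factors of ECs spanned a wider range, with 27 of 30 at or above 1 TPM in both samples and 14 at a mean of at least 100 TPM. Among all 24063 symbols, 14288 reached 1 TPM and 1712 reached 100 TPM in both samples, the latter a stricter rule than a mean of 100 TPM. Epas1, which encodes the hypoxia-inducible factor HIF-2alpha, was by far the highest at 1684, 1692 and 1388 TPM and ranked 50. The shear stress factors Klf2 and Klf4 stood at 501, 517 and 382 TPM and at 436, 441 and 349 TPM. Foxf1, needed for lung capillaries, was at 429, 434 and 267 TPM. Lmo2, a bridging protein of blood and vessel factors, was at 533, 524 and 445 TPM as a sum of 4 transcripts and at 126 TPM by its highest. Ets1 was at 351, 341 and 328 TPM, from 2 transcripts, and Elk3, another ETS factor, at 222, 222 and 196 TPM.

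The ETS factors Erg and Fli1, which hold EC identity, were lower. Erg was at 117, 119 and 88.5 TPM and Fli1 at 30.2, 29.2 and 22.01 TPM. Among the SOX factors of the F group, Sox17 was at 329, 325 and 261 TPM (5 transcripts, highest 63.4 TPM), Sox18 at 179, 188 and 103 TPM and Sox7 at 122, 124 and 89.6 TPM, so that the order of Sox17 depends on the sum. Gata2, shared with blood progenitors, was at 161, 162 and 124 TPM. Etv2, the factor of embryonic EC specification, and Nkx2-3, a factor of gut and spleen vessels, had 0 counts in all 3 libraries, and Foxc2, a factor of lymphatic valves, was at 1.10, 1.23 and 0.543 TPM. Of 29 neighbouring pairs in the order of these factors, 19 had overlapping ranges.

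Markers of the vascular beds put the capillaries first. Summed over 8 genes each, general capillary markers reached 2813 and 2195 TPM in the mean of replicates 1 and 2 and in replicate 3, aerocyte markers 1769 and 1281 TPM, arterial markers 879 and 705 TPM and venous markers 674 and 554 TPM. Lymphatic markers, 7 genes, reached 905 and 381 TPM. The general capillary sum over the aerocyte sum was 1.58, 1.60 and 1.71 in the 3 libraries, and 1.87, 1.89 and 1.99 by the highest transcripts. The arterial over the venous sum was 1.31, 1.29 and 1.27, and 1.16, 1.15 and 1.08 by the highest transcripts. Sox17, a sum of 5 transcripts, gave 327 and 261 TPM of the arterial sums in the 2 samples. Without it the summed arterial markers would lie below the venous ones. Sox17 and the venous Nr2f2 are also in the transcription factor list, Cd93 of the general capillary list is among the surface proteins, and Pdpn is both a lymphatic and an alveolar type 1 marker here. A sum depends on which genes represent a bed and is no share of cells.

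Among general capillary genes, Plvap, the protein of fenestral and caveolar diaphragms, was the highest at 941, 959.6 and 618 TPM. Gpihbp1, which carries lipoprotein lipase to the vessel lumen, was at 535, 525 and 353 TPM, and Lpl, the lipase itself, at 154, 151 and 215 TPM, higher in replicate 3. Kit, a receptor kinase of these cells, was at 311, 309 and 217 TPM, and the apelin receptor Aplnr at 81.3, 80.1 and 61.7 TPM. Aerocytes were represented by Car4, a carbonic anhydrase on the cell surface, at 547, 539 and 434 TPM, and by Ednrb, the endothelin B receptor, at 371, 359 and 259 TPM (highest 109 TPM). Apln, the ligand of Aplnr that aerocytes make, was at 77.4, 76.8 and 51.3 TPM, and the factor Tbx2 was at 137, 145 and 107 TPM. All 8 aerocyte genes were lower in replicate 3, with a median log2 ratio of -0.49, and of them Fibin was past 2-fold. Over all 14288 symbols the median log2 ratio was -0.03, and 0.924% were lower by over 2-fold.

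Arterial genes were led by Sox17 and by Efnb2, the ephrin ligand of arteries, at 171, 174 and 123 TPM. Gja4 and Gja5, connexins of arterial gap junctions, were at 105, 105 and 129 TPM and at 40.4, 41.8 and 35.2 TPM. Gkn3, a narrow marker of arteries, was near the floor of the list at 4.04, 4.05 and 5.79 TPM. Among venous genes Ephb4, the receptor of Efnb2, was at 259, 267 and 189.6 TPM, and Vwf, the clotting factor stored in larger vessels, at 208, 213 and 218 TPM, with little difference between the libraries. Ackr1, an atypical chemokine receptor of venules, was at 1.25, 1.71 and 2.17 TPM. Slc6a2, a noradrenaline transporter of pulmonary veins, was at 67.2, 67.2 and 32.9 TPM, 2.04-fold lower in replicate 3.

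The lymphatic list was headed by genes that other cells also use. Lyve1, a hyaluronan receptor, was at 598, 592 and 207 TPM, 2.88-fold lower in replicate 3, and Mmrn1 at 135, 132 and 62.8 TPM. Prox1, the factor that sets lymphatic identity, was at 5.57, 5.69 and 3.22 TPM, and Flt4, the VEGF-C receptor, at 60.1, 62.1 and 47.2 TPM. Ccl21a, a chemokine of lymphatic vessels, had 1, 0 and 0 counts (0.0181 TPM in replicate 1). All 6 members at or above 1 TPM in both samples were lower in replicate 3. Of them 2 were lower by over 2-fold, against 0.924% of all 14288 symbols.

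**Figure D2:**
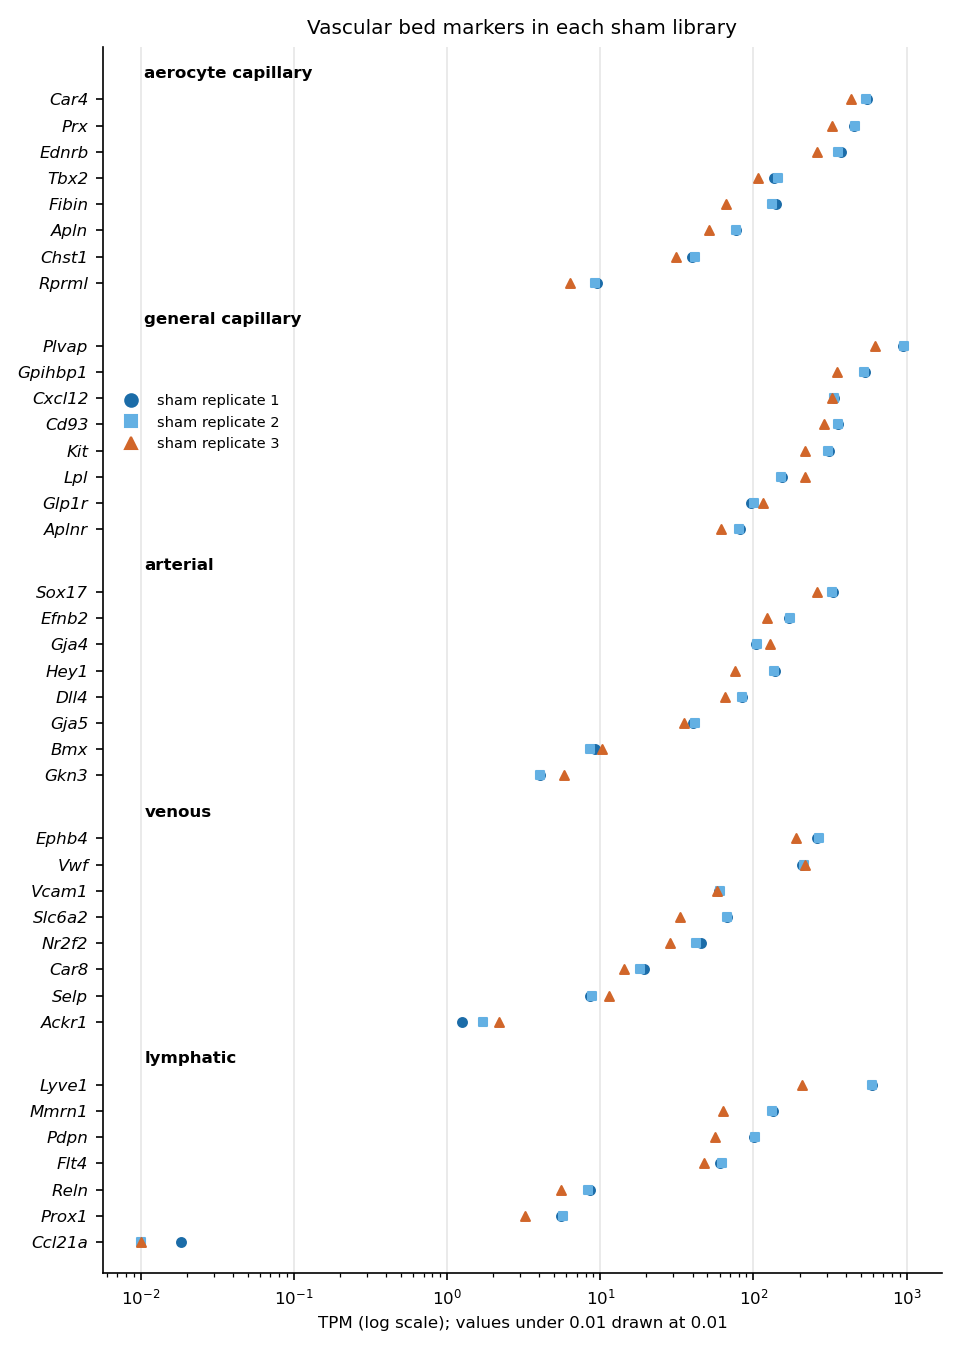
TPM (log scale) of markers of 5 vascular beds in sham replicates 1 (circles), 2 (squares) and 3 (triangles), summed over transcripts and ordered by level within each bed. General capillary genes lie between 71.2 and 784 TPM (means of the 2 samples), and most triangles lie left of the other symbols, with Lpl, Gja4 and Selp among the exceptions.

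VEGF ligands bind receptor kinases on ECs to drive sprouting and survival, and angiopoietins act through Tek to hold vessels stable. Of the 16 genes of both systems found in the table, 15 were at or above 1 TPM in both samples. Among ligands, Vegfa had the highest sum, 3284, 3375 and 2204 TPM, but from 9 transcripts, and its highest transcript alone was at 317 TPM, which moved its rank from 25 to 314. Vegfc and Figf (VEGF-D), the lymphatic ligands, were at 41.6, 41.9 and 27.8 TPM and at 33.3, 33.6 and 32.2 TPM, and Vegfb at 29.1, 30.3 and 30.9 TPM. Angpt1, the agonist of Tek, was at 51.8, 49.04 and 35.9 TPM, Angpt2, its context-dependent antagonist, at 18.5, 18.9 and 18.2 TPM, and Angpt4 at 0.164, 0.0923 and 0.145 TPM.

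Among receptors, Kdr stood above Flt1, the decoy-like VEGF receptor, which was at 158, 159.7 and 118 TPM, and the ranges did not overlap. The co-receptors Nrp1 and Nrp2 were at 273, 272 and 214 TPM and at 162, 165 and 148 TPM, the latter from 6 transcripts (highest 26.8 TPM). Ptprb, the phosphatase VE-PTP that restrains Tek, was at 327, 327 and 259.5 TPM. Of the 15 genes that passed, 14 were lower in replicate 3, with a median log2 ratio of -0.35 against -0.03 for all 14288 symbols. None was lower by over 2-fold, as were 0.924% of all symbols.

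Adiponectin, a subject of the study, and leptin are hormones of fat cells that ECs read through receptors. The receptors were measured well and the hormones hardly at all. Adipor1 was at 161, 159 and 153 TPM and Adipor2 at 92.5, 92.4 and 109 TPM, while Cdh13, the T-cadherin that binds adiponectin on vessels, was at 16.7, 17.2 and 18.3 TPM. Lepr, the leptin receptor, was at 140.0, 136 and 119 TPM from 3 transcripts (highest 46.6 TPM). Adipoq had 1, 1 and 0 counts (0.0255, 0.0287 and 0 TPM), and a count of 0 in replicate 3 allows up to 0.180 TPM, taking 3 counts as the limit. Lep had 0 counts in all 3 libraries. Other adipocyte genes were low too, with Plin1 at 0.233, 0.262 and 0.549 TPM and Cfd at 0.611, 0.534 and 0.160 TPM, except Cidec, a lipid droplet protein, at 44.1, 42.3 and 80.9 TPM.

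Twist1, a factor of mesenchymal transition, was close to the limit of detection, with 7, 2 and 1 counts from 1 transcript. These counts are 0.135 TPM (95% exact Poisson interval 0.0543 to 0.278), 0.0433 TPM (0.00525 to 0.157) and 0.0454 TPM (0.00115 to 0.253), and the intervals cover counting error only. Its paralog Twist2 was at 0.910, 0.915 and 0.508 TPM. Zeb2 and Zeb1, repressors of the same programme, were far higher at 61.6, 56.6 and 70.6 TPM and at 53.4, 54.6 and 43.5 TPM, and Snai1 and Snai2 were at 7.39, 8.15 and 9.38 TPM and at 10.6, 10.6 and 6.59 TPM.

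Notch signalling divides arterial from venous and tip from stalk cells, and 13 of its 14 listed genes passed 1 TPM in both samples. The receptor Notch4, largely restricted to ECs, was the highest receptor at 89.2, 90.2 and 60.6 TPM, followed by Notch1 at 54.3, 55.7 and 59.6 TPM. Notch2 was at 17.4, 17.9 and 31.9 TPM and Notch3, the receptor of mural cells, at 17.2, 17.3 and 25.7 TPM, both higher in replicate 3. Dll4 led the ligands at 84.4, 83.6 and 65.2 TPM, Dll1 was at 51.3, 54.7 and 27.7 TPM and Jag1 at 21.04, 20.2 and 16.4 TPM, and Dll3 had 0 counts. The targets Hes1 and Hey1 were the highest members, at 151, 151 and 92.7 TPM and at 137, 136 and 76.1 TPM.

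BMP signalling through Acvrl1 and Eng keeps the endothelium quiescent. All 14 genes of the BMP and TGF-beta list passed. The type II receptors Bmpr2 and Tgfbr2 were at 215, 199.7 and 143 TPM and at 283, 285 and 274 TPM. The target genes Id1, Id3 and Smad6 stood at 319.5, 321 and 130.2 TPM, at 447, 449 and 288 TPM and at 177, 182 and 123 TPM, all lower in replicate 3, and Id1 by 2.46-fold. Id2, of the same family, was higher in replicate 3 at 97.6, 94.8 and 114 TPM, and of the 14 genes 4 were higher and 10 lower there. Sphingosine 1-phosphate, a lipid that tightens the barrier, is read by S1pr1, at 515, 512 and 336 TPM, and exported by Spns2, at 259.7, 261 and 225 TPM. The other receptors of the lipid were at most at 28.3 TPM (S1pr4).

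All 17 genes listed for vessel tone were at or above 1 TPM in both samples, as were 14288 of all 24063 symbols. Ace, the angiotensin-converting enzyme for which the lung bed is known, was at 2676, 2695 and 2425 TPM (3 transcripts, highest 869 TPM). Edn1, which encodes the constrictor endothelin, was at 214, 215 and 121 TPM, its processing enzyme Ece1 at 306, 309.9 and 254 TPM, and its receptor Ednra, of smooth muscle, at 23.2, 22.4 and 26.8 TPM. Ptgis, which makes the dilator prostacyclin, was at 83.5, 86.2 and 67.7 TPM. In the clotting list Thbd, the thrombin-binding anticoagulant thrombomodulin, was the highest at 1133, 1125 and 631 TPM, above Vwf. Plat, the activator of clot lysis, was at 64.9, 65.9 and 51.5 TPM, while F3, the tissue factor that starts clotting, was at 22.1, 21.7 and 20.4 TPM.

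The junction list had 17 of 19 genes at a mean of at least 10 TPM. Of all 24063 symbols, 9766, 9760 and 9964 reached 10 TPM in replicates 1, 2 and 3. The catenins that anchor Cdh5 were high, with Ctnnb1 at 893, 893 and 739 TPM, Ctnnd1 at 1135, 1149 and 919 TPM (highest 214 TPM) and Ctnna1 at 416, 419.5 and 338 TPM, against Cdh2, the N-cadherin, at 1.67, 1.63 and 1.53 TPM. Caveolae, the membrane pits that abound in lung capillaries, were represented by Cav1 at 2673, 2605 and 1766 TPM, Cav2 at 737, 689.8 and 372 TPM and the coat genes Ptrf at 352, 360.4 and 246 TPM and Sdpr at 680.3, 642 and 394 TPM, whereas Cav3 of muscle was at 0.761, 0.946 and 0.896 TPM. Caveola genes had a median log2 ratio of -0.56 between replicate 3 and the mean of the others.

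Lipid uptake was led by Cd36, a fatty acid receptor, at 6946, 6679 and 4895 TPM (5 transcripts, highest 1205 TPM). The fatty acid carriers Fabp5 and Fabp4 were at 226, 217 and 306 TPM and at 57.3, 57.1 and 55.3 TPM, the former from 3 transcripts (highest 94.3 TPM). Among adhesion molecules for leukocytes, Icam2, present on resting ECs, was at 666, 663 and 439.8 TPM and Icam1 at 257, 257 and 236 TPM. The inducible ones were lower, with Vcam1 at 59.98, 60.8 and 57.5 TPM, Sele at 6.77, 6.45 and 8.52 TPM and Selp at 8.56, 8.87 and 11.4 TPM. Madcam1 and Glycam1, ligands of gut and lymph node vessels, had 0 counts in all 3 libraries.

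Of 23 basement membrane genes all passed, led by Sparc, a matrix-binding protein, at 1416, 1435 and 915 TPM, and by the collagen IV chains Col4a1 and Col4a2 at 359, 364 and 275 TPM and at 253, 257 and 198 TPM. These 2 genes overlap at their starts. Col4a3 and Lama3, chains known from epithelia, were among those past 2-fold, both lower in replicate 3. Piezo1, a flow-gated channel, was at 53.4, 53.05 and 52.9 TPM, and Yap1 and Wwtr1 (TAZ), effectors of stretch, at 114, 113 and 80.5 TPM and at 162, 159 and 114 TPM. Their target Cyr61 was at 487, 488 and 378 TPM and Ctgf at 164, 166 and 92.8 TPM.

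Cells of resting lung divide rarely. Mki67, present in cycling cells, was at 4.10, 4.27 and 8.07 TPM and Top2a at 6.56, 6.55 and 12.03 TPM, and the median of the 17 cell division genes was 7.32 TPM, a percentile of 54.9 among all symbols. The cycle inhibitor Cdkn1a was at 261, 264 and 314 TPM and Cdkn1b at 59.3, 54.3 and 41.8 TPM. Immediate early genes, which cells switch on quickly after a stimulus, had a median of 405 TPM over 19 genes, 15 of them at a mean of at least 100 TPM. Fos was at 1431, 1425 and 1287 TPM, Jun at 1092, 1136 and 707 TPM and Egr1 at 622, 630.5 and 555 TPM. Heat shock genes were at a median of 183 TPM, with Hspa8 at 1232, 1231 and 869 TPM and Hspa1b at 671, 685 and 242 TPM. Hspa1a and Hspa1b are near-identical copies, so their split is uncertain.

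Glycolysis, on which ECs depend for energy, had 18 of 18 genes at or above 1 TPM. Aldoa, which splits fructose bisphosphate, was at 1133, 1157 and 1412 TPM (highest 439 TPM), and Gapdh at 609, 603 and 925 TPM. Pfkfb3, the activator of glycolysis in sprouting vessels, was at 463, 467 and 327 TPM as a sum of 8 transcripts and at 51.3 TPM by its highest. The glucose transporter Slc2a1 was at 12.6, 11.7 and 25.99 TPM. MHC class I genes were high throughout, with B2m at 3442, 3241 and 3198 TPM and H2-K1 at 1354, 1354 and 1547 TPM. H2-D1 was at 1809.8, 1827 and 1938 TPM, but it is nearly identical with H2-L, and reads of the pair cannot be assigned with certainty. H2-L could not be located in the GRCm38 annotation, so its row may not stand for a separate gene.

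The highest levels in the table did not belong to ECs alone. Scgb1a1, the secretory protein of airway club cells, was first of 24063 symbols at 10754, 10842 and 19521 TPM (mean 15159 ± 6168 TPM), and Sftpc, the surfactant protein of alveolar type 2 cells, had rank 3 at 7399, 7368 and 7848 TPM (mean 7616 ± 328 TPM). Lyz2, a lysozyme of myeloid cells and type 2 cells, was at 4755, 4736 and 8368 TPM. Among EC-associated genes, Ly6a had the highest sum, 9489.7, 9259 and 6327 TPM, but from 6 transcripts, and its highest alone was at 1337 TPM and rank 33. Broadly used genes filled many of the other top places, such as Psap, a lysosomal protein, at 5115, 5176 and 8574 TPM (6 transcripts, highest 1173 TPM and rank 39), Gsn, which severs actin, at 6590.0, 6688 and 5779.9 TPM (4 transcripts, highest 1583 TPM and rank 22), and Tmsb4x, which binds actin monomers, at 3975, 4015 and 4485 TPM. The others of the 30 highest coding symbols, namely Ly6e, App, Fth1, Gnas, Eef1a1, Sepp1, Cd97, Ly6c1, Eif5a, Tmem176b, Rps24 and Rps27, had mean sums between 2368 and 6568 TPM, and their highest transcripts were between 326 and 3597 TPM. Of the 30 highest coding symbols by sums and by highest transcripts, 14 were shared.

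Expression was spread over many genes. In both samples 14288 symbols reached 1 TPM, 1712 reached 100 TPM and 78 reached 1000 TPM, while 4815 had 0 counts in every library. The 10 highest symbols held 6.79%, 6.77% and 8.08% of all TPM and the 100 highest 23.2%, 23.2% and 24.6%. Scgb1a1, Lyz2, Psap and Cd74 were each higher in replicate 3 than in the other libraries.

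**Figure D3:**
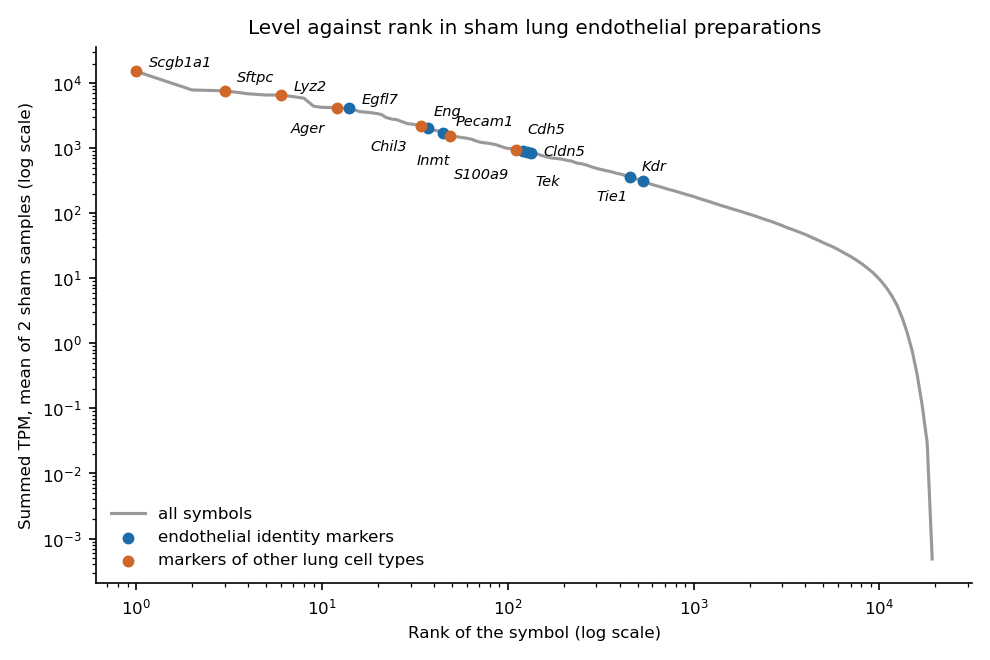
Summed TPM (log scale, mean of the 2 sham samples) against the rank of each symbol (log scale), with endothelial identity markers in blue and markers of other lung cell types in orange. Scgb1a1, Sftpc and Lyz2 stand left of every endothelial marker, and the lowest endothelial marker, Tie1, has rank 531.

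Markers of 21 other cell types that a lung digest can hold were listed, and 180 members were in the table. Of these, 20 lay above the lowest endothelial identity marker, and they came from 7 of the 21 lists. That marker, Tie1, had rank 531 among all 24063 symbols, so a far smaller share of all symbols lay above it. In 16 lists the median member was at 10 TPM or more. That level was reached by 9766, 9760 and 9964 of all 24063 symbols in replicates 1, 2 and 3. The sum of the 8 endothelial identity markers was 12589.9 and 9727 TPM in the 2 samples (6004 and 4799.7 TPM by highest transcripts). The alveolar type 2 list summed to 11216 and 12057 TPM, the alveolar type 1 list to 9866 and 4242 TPM and the club cell list to 12054 and 21774 TPM. By highest transcripts the same 3 lists summed to 10102 and 10749 TPM, to 3177 and 1613 TPM and to 11703 and 21136 TPM. From which cells these reads came was not tested.

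Alveolar type 2 cells were represented by all 10 of their listed genes at a mean of at least 10 TPM, to be read against the same shares of all symbols. After Sftpc came Sftpb at 2081, 2117 and 2474 TPM and Sftpa1 at 684, 698 and 696 TPM, both surfactant proteins, and Nkx2-1, the factor of lung epithelium, was at 50.1, 47.9 and 28.2 TPM. The median log2 ratio of this list between the samples was 0.01. The thin type 1 cells lie against the capillaries and share a basement membrane with them. Their marker Ager was at 5949.7, 6055 and 2253 TPM (7 transcripts, highest 633 TPM), Hopx at 1786, 1779 and 778 TPM (highest 462 TPM) and Aqp5, a water channel, at 115, 117 and 54.9 TPM. General epithelial genes were lower, with the cell surface protein Epcam at 18.6, 18.6 and 27.9 TPM and Cdh1, the E-cadherin, at 47.6, 48.5 and 46.7 TPM.

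Leukocyte genes were led by macrophage products. Chil3, a chitinase-like protein of alveolar macrophages, was at 1499.5, 1491 and 2835 TPM, Cd68 at 171, 178 and 473 TPM and Csf1r, the receptor that keeps macrophages alive, at 49.9, 47.8 and 137 TPM. The neutrophil proteins S100a9 and S100a8 were at 451, 472 and 1433 TPM and at 191, 199 and 509 TPM. T cell genes were low, with Cd3e of the T cell receptor complex at 4.90, 4.89 and 14.5 TPM, and B cell genes somewhat higher, with Cd79a of the B cell receptor at 41.9, 42.3 and 51.4 TPM. Platelets carry CD31 themselves, and Pf4, one of their granule proteins, was at 26.5, 23.7 and 33.7 TPM. The globin Hbb-bs of red cells was at 170.3, 166 and 80.7 TPM.

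Markers of stromal cells spanned a wide range. Inmt, a methyltransferase high in lung fibroblasts, was at 1892, 1875 and 1231 TPM, Pdgfra of alveolar fibroblasts at 154, 150.4 and 123 TPM and Col1a1 at 66.6, 67.7 and 96.4 TPM. Pdgfrb, a receptor of pericytes, was at 75.9, 75.7 and 107 TPM, while their regulator Rgs5 was at 4.34, 4.51 and 5.44 TPM. Acta2, the smooth muscle actin, was at 56.02, 56.8 and 66.1 TPM and Myocd, its master factor, at 0.486, 0.602 and 0.675 TPM. Schwann cell genes were near the floor, with Sox10 at 0.0348, 0 and 0.109 TPM.

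**Figure D4:**
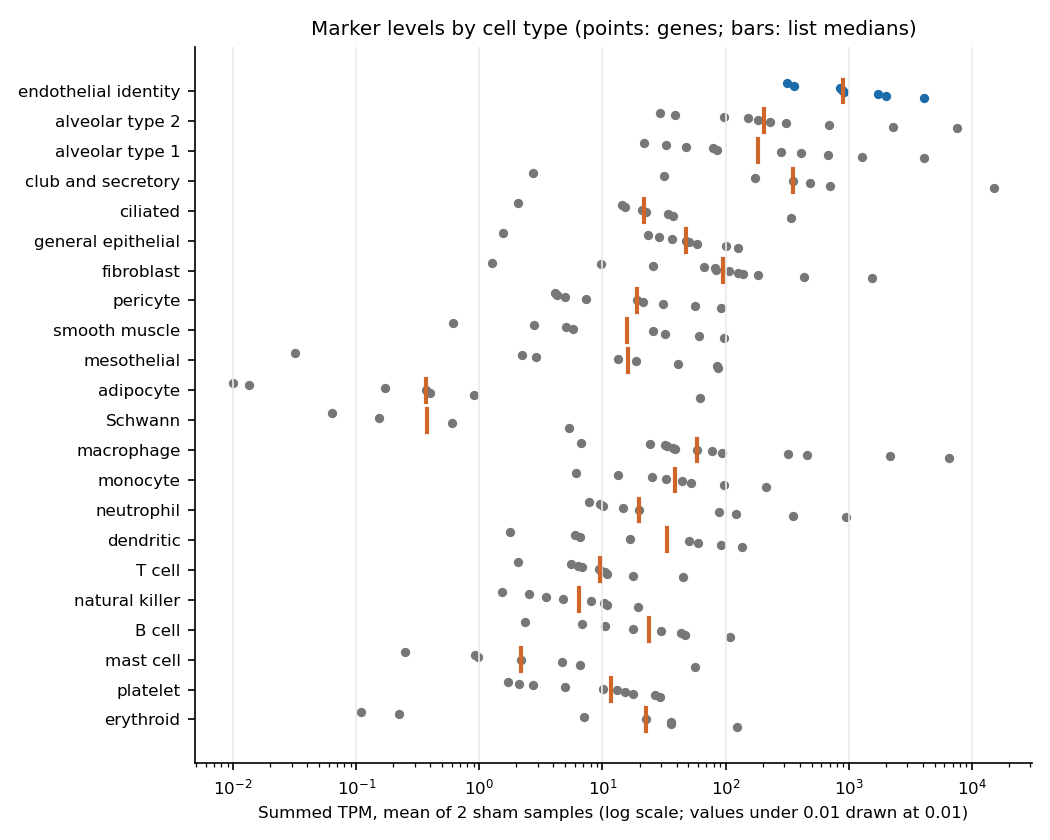
Summed TPM (log scale, mean of the 2 sham samples) of the marker genes of ECs (blue) and of 21 other cell types (grey), 1 point per gene, with an orange bar at the median of each list. The endothelial median is 897 TPM, above those of all 21 other lists. Club and secretory cells (202 TPM in the mean of replicates 1 and 2 and 506 TPM in replicate 3), alveolar type 2 cells (200.4 and 210.4 TPM) and alveolar type 1 cells (237 and 133 TPM) come next in an order that differs between the samples, while adipocyte and Schwann cell medians are under 1 TPM.

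Replicate 3 was then set beside the mean of replicates 1 and 2. Of 14288 symbols at or above 1 TPM in both, 784 (5.49%) differed by over 2-fold, 652 (4.56%) higher and 132 (0.924%) lower in replicate 3. The median log2 ratio over all of them was -0.03 and the median fold in either direction 1.19. With 1 sample on each side these are differences between samples and have no replicate check. The lists were read against these shares.

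Endothelial lists lay below the median of all symbols. The identity markers had a median log2 ratio of -0.32 with 0 of 8 past 2-fold, the surface and secreted proteins -0.35 with 1 of 20, the transcription factors -0.39 with 0 of 27, and the general capillary genes -0.35 with 0 of 8. Their sums were 1.29-fold and 1.30-fold lower in replicate 3 for the first 2 of these lists.

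Alveolar type 1 genes stood out on the low side, with 7 of 10 lower by over 2-fold and a median log2 ratio of -1.08. Rtkn2, a marker of these cells, was at 35.8, 34.97 and 8.43 TPM, and Ager was 2.66-fold lower. Type 2 genes had 0 of 10 past 2-fold in either direction. Among 5 erythroid genes that passed, 2 were lower by over 2-fold, and of 12 heat shock genes 3 were, Hspa1b, Hspb1 and Hspa1a. Hspb1, a small chaperone, was at 628, 629.6 and 236 TPM.

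On the high side were leukocyte and mesothelial genes. Monocyte genes had 6 of 8 past 2-fold (median log2 ratio 1.30), neutrophil genes 6 of 9 (1.20), T cell genes 7 of 10 (1.11) and mesothelial genes 6 of 7 (1.59). Macrophage genes had 2 of 13, Cd68 and Csf1r, with all 13 higher and a median of 0.92. MHC class II genes, which macrophages, dendritic cells and B cells use to show antigen, had 6 of 7 past 2-fold. Their invariant chain Cd74 was at 2159, 2179.8 and 6035 TPM and H2-Ab1 at 447, 454 and 923 TPM. Dendritic genes had 3 of 8 past 2-fold, natural killer genes 1 of 8 and mast cell genes 1 of 3, all of these higher in replicate 3. By direction alone, 6 dendritic genes were higher and 2 lower. Natural killer genes were mixed, with 5 higher and 3 lower and a median log2 ratio of 0.08. B cell genes had 0 of 8 and platelet genes 0 of 10 past 2-fold. Plac8, a myeloid protein, was at 139, 141 and 285 TPM and Msln, a surface protein of the pleural lining, at 36.4, 36.8 and 137 TPM.

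Club cell genes had 3 of 7 past 2-fold, among them Scgb3a1 at 203, 200.2 and 506 TPM, and Scgb1a1 was 1.81-fold higher in replicate 3. Cell division genes had 2 of 16, with 15 of 16 higher. The higher levels of monocyte, neutrophil, macrophage, T cell, mesothelial and club cell genes accompanied the lower endothelial levels in replicate 3. Their part in the endothelial difference was not tested.

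At most 2 genes of each of the following lists were past 2-fold. Fibroblast genes had 2 of 11, Dcn and Pi16, both higher in replicate 3, while ciliated, general epithelial, smooth muscle and pericyte genes had none of 8, 8, 7 and 9. Among functional lists the junction, caveola, lipid handling, leukocyte adhesion, clotting, Notch, MHC class I and cycle inhibitor genes had none. Immediate early genes had 2 of 19 higher, Nr4a1 at 345, 346 and 722 TPM and Fosl2, and glycolysis genes 2 of 18 higher, Slc2a1 and Hk2. The BMP list had Bmpr1b higher and Id1 lower, the sphingosine list S1pr5 higher, the mechanosensing list Ankrd1 lower and the list of vessel tone Calcrl lower.

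**Figure D5:**
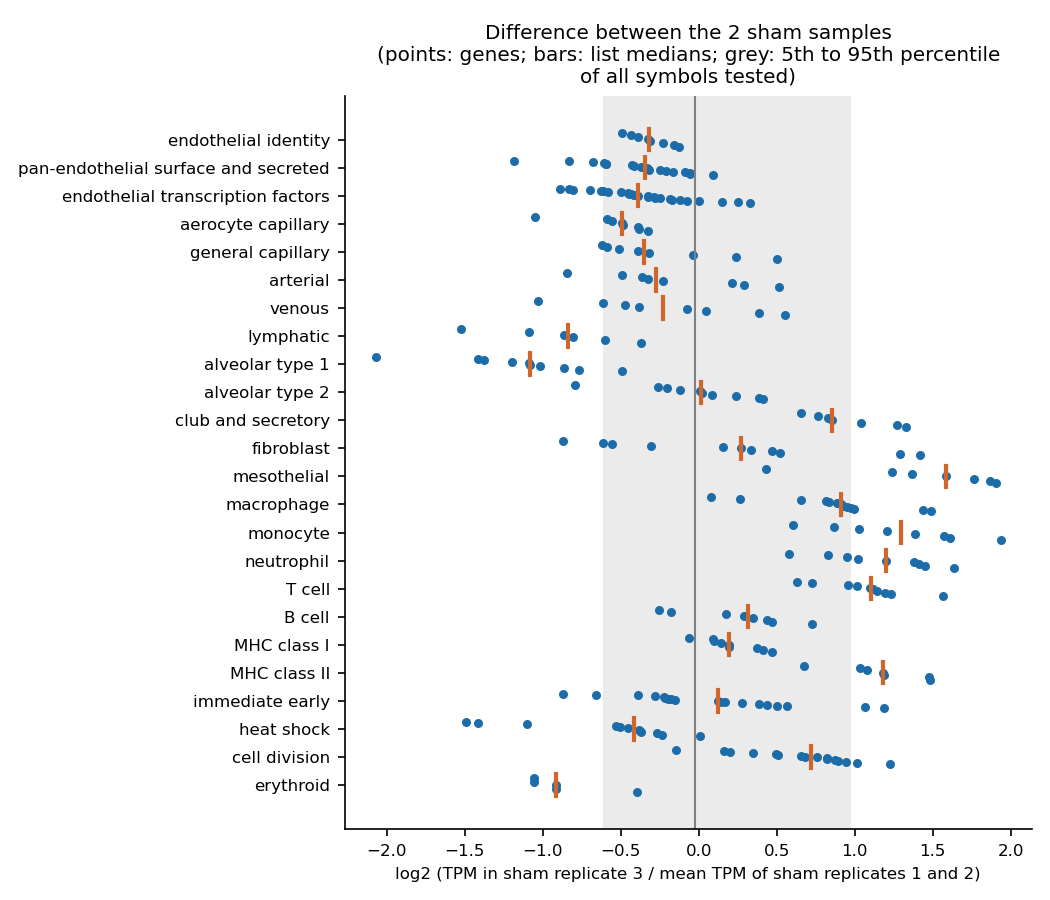
Log2 of the TPM in sham replicate 3 over the mean TPM of sham replicates 1 and 2, 1 point per gene at or above 1 TPM in both, with an orange bar at each list's median. The grey band spans the 5th to the 95th percentile of all 14288 symbols (-0.61 to 0.97) and the line their median. Alveolar type 1 genes (-1.08) and mesothelial genes (1.59) lie at the ends.

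The symbols with the largest ratios were then taken without regard to lists, from those at or above 10 TPM in both samples with at least 100 counts in every library. Cyp26b1, an enzyme that breaks down retinoic acid, was at 883, 898 and 64.98 TPM, 13.7-fold lower in replicate 3, and Lrat, which stores retinol as ester, at 56.8, 54.5 and 20.01 TPM. Npr3, the clearance receptor of natriuretic peptides, was at 394, 399 and 52.5 TPM (highest transcript 75.00 TPM), 7.56-fold lower. Scnn1g, a subunit of the epithelial sodium channel, was at 32.6, 33.1 and 10.8 TPM, and Cyp2b10 at 119, 118 and 42.1 TPM. Prrg1, Lyve1, Hspa1b, Wfdc1 and Hspb1 made up the rest, at 2.67-fold to 3.09-fold lower.

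At the other end stood Irg1, the itaconate-making enzyme of activated macrophages, at 10.2, 10.9 and 51.3 TPM (4.85-fold higher in replicate 3). Il1r2, a decoy receptor of interleukin 1 on neutrophils, was at 14.9, 14.8 and 57.7 TPM, Ifitm6 at 21.5, 20.6 and 81.7 TPM and Treml4, a receptor of myeloid cells, at 40.7, 40.3 and 155 TPM (highest transcript 24.6 TPM). Msln and Upk3b, genes of the mesothelium, were at 3.75-fold and 3.64-fold, and C4b, a complement factor, at 36.5, 34.7 and 132 TPM. Rn45s, the precursor of ribosomal RNA, an RNA without a poly(A) tail, was at 197, 189.6 and 704 TPM. Gpr132 and Nfil3 were 3.58-fold and 3.51-fold higher.

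Some levels are shared with a neighbour on the genome, since no source used here says whether the counting used strand, and reads of overlapping genes may not be told apart. Examples among the many genes above that overlap another on the opposite strand are Eng with Fpgs, Cdh5 with Gm29682, B2m with Patl2, Plvap with Gtpbp3, Ctnnb1 with Ulk4, Nos3 with Atg9b, Angpt2 with Mcph1, Hopx with Hopxos, Acvrl1 with Gm16031, Ace with Gm11651, Cav1 and Cav2 with Gm15581, Cd34 with Gm16897, Piezo1 with Ctu2, Elk3 with Cdk17, Spns2 with Mybbp1a and Aldoa with Fam57b. In GRCm38 the 3 endothelial markers of the printed windows lie at chr4:118471191-118489849 (Tie1), chr2:32646595-32682669 (Eng) and chr16:18776847-18778262 (Cldn5).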

How the data were processed

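Bulk RNA was measured in 6 libraries, of which the 3 sham libraries were used. The authors aligned the reads to mm10 (STAR is named in the submitters' processing notes) and deposited for each library a table of 33068 RefSeq transcripts with whole-number counts, FPKM and TPM. The deposited FPKM values served only to recover transcript lengths, and the deposited counts gave depth, intervals and the comparison of replicates. How reads were assigned to transcripts, with or without strand, and which RefSeq release served, is not given in the sources used here. TPM was summed per symbol with pandas 2.3.3 in Python 3.11.15 without further scaling.

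Groups came from the labels. Replicates 1 and 2 were averaged to 1 sample, and means and SDs are over 2 samples. Differences were called above 2-fold among symbols at or above 1 TPM in both samples, without a test. Exact Poisson intervals (95%) and the limit of 3 counts cover counting error only. Positions and overlaps are from the GRCm38 annotation, where genes could be located. Symbols were used as the table spells them, and 511 of 521 listed symbols were found. The script was tested on simulated data.

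The genes named were the 30 highest coding symbols, in each of 51 lists the 8 highest members and those at 0, and the 10 symbols at each end of the ratio of replicate 3 to the mean of replicates 1 and 2. Members outside this rule, such as Rtkn2, Fosl2 or Cdh2, were named after their values were seen. The members and the lists were chosen with earlier results of these data known. Alternatives were the highest transcript alone, CPM, rows under 200 bases left out, each library left out, equal weights, other thresholds and another scaling. The PNX libraries were left out, and many members under this rule are given by counts and ranges only, or are not reported here.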

Additional observations from a re-analysis of the deposited data

How the results depend on the processing

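Summed levels depended on how transcripts were joined. With the highest transcript alone, the sum of the 8 endothelial identity markers was 5402 TPM against 11159 TPM, the 100 highest symbols held 22.7% of TPM against 23.9%, and the general capillary over aerocyte ratio was 1.93 against 1.65. With counts scaled to library totals (CPM) in place of TPM, the 100 highest symbols held 19.5% and the median percentile of the identity markers was 99.8 against 99.5. A filter of 10 TPM left 285 symbols past 2-fold (240 higher and 45 lower in replicate 3) in place of 784. It also left fewer symbols to compare than the 14288 behind the 784 (5.49%), so these counts are not shares. Between replicates 1 and 3 alone, 292 of 9439 symbols at 10 TPM (3.09%) were past 2-fold. Median-ratio scaling gave 817 (697 and 120). Thresholds of 0.5 and 5 TPM gave 15137 and 11464 symbols in place of 14288. Leaving out each library in turn gave 14255 to 14480 symbols at 1 TPM, 23.2% to 23.9% for the 100 highest, 11135 to 12590 TPM for the identity sum, medians of 99.5 to 99.6 for their percentile, ratios of 1.59 to 1.66 for the capillary beds, 14 to 16 cell type lists with a median of 10 TPM, and 805 to 809 symbols past 2-fold, which has no value without replicate 3. No paired analysis was possible because 1 group was described and no test was made. Depth limits the lowest genes, such as Twist1 and Adipoq, to a few counts.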

Other observations

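Gene families read from symbol names showed how the resting preparation spent its RNA. Cytosolic ribosomal protein genes (94 symbols, 89 at or above 1 TPM in both samples) held 5.42%, 5.47% and 6.20% of TPM, and 92 respiratory chain subunits 1.10%, 1.10% and 1.06%. A group of 13 actin cytoskeleton genes held 1.15%, 1.17% and 1.27%, led by Tmsb4x. Genes of the MHC, 43 symbols, held 0.911%, 0.917% and 1.17%, with 7 of the 29 at or above 1 TPM over 2-fold higher in replicate 3, against 4.56% of all symbols. The 18 S100 genes held 0.225%, 0.229% and 0.371%. Sensory families were nearly silent, as 1062 of 1122 olfactory receptor symbols and 317 of 338 vomeronasal receptor symbols had 0 counts in all 3 libraries. Olfr56 was the highest olfactory receptor, at a mean of 6.29 TPM. Of 389 solute carriers 235 passed 1 TPM in both samples, near the share of all symbols (14288 of 24063). They were led by Slc9a3r2, which is a scaffold protein despite its symbol (1042 TPM), and by the nucleoside transporter Slc29a1 (585 TPM).

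Symbols with noncoding transcripts only, 3438 in number, held 3.99% of TPM in the mean of replicates 1 and 2 and 4.51% in replicate 3. Much of this came from rows under 200 bases, 688 in number, with 2.81% and 3.27%. The highest were microRNA precursors, many of them inside abundant genes, such as Mir3064 (67 bases, inside Ddx5) at 2799, 2698 and 2813 TPM and Mir5107 (88 bases, inside Cd74) at 2423, 2384 and 6446 TPM. Mir6236 (123 bases), at 2917, 3589 and 2683 TPM, and the lower Mir3962 and Mir6367 overlapped no gene of the classes searched. These were protein-coding genes, long intergenic and antisense noncoding RNAs and processed transcripts. Cd74 itself was at 2159, 2180 and 6035 TPM, and reads of host and precursor were not separated here.

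Promoters (250 bases upstream, RefSeq) differed in base composition with the level of their gene, as a description of 20328 windows. The median number of CG pairs was 1 for symbols at 0 TPM, 5 under 1 TPM, 11 from 1 to 10 TPM, 16 from 10 to 100 TPM, 15 from 100 to 1000 TPM and 11.5 at 1000 TPM and above (118 windows). The letters TATAAA, on either strand anywhere in the window, were in 27.7% of windows at 0 TPM, 5.62% at 10 to 100 TPM and 16.1% at 1000 TPM and above. The median share of G and C in these windows was 42.4%, 60% and 58.4%.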
